A study of Mus musculus with 40 samples.

Results

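The Cyp2c family of mouse liver was described here through its 10 genes Cyp2c29, Cyp2c37, Cyp2c38, Cyp2c39, Cyp2c40, Cyp2c50, Cyp2c54, Cyp2c55, Cyp2c69 and Cyp2c70, chosen by gene symbol. They carried 15 of the 30146 probes and were 10 of the 21448 genes in the deposited count table. Crl:CD1(ICR) mice, wildtype in genotype, had received GenX, a perfluorinated ether acid given as its ammonium salt, by daily oral gavage for 90 days, in deionized water, at 5, 0.5 or 0.1 mg/kg bw/day, and control mice received the water alone. Each of the 8 groups, 4 of males and 4 of females, held 5 mice, the first 5 by animal number, and each mouse gave a single scraped section of formalin-fixed, paraffin-embedded liver. RNA was counted by TempO-Seq, in which pairs of short probes are ligated on their target RNA and the ligated product is sequenced. The library of female mouse 355 at 0.5 mg/kg held 6711981 reads against 10341341 to 15562253 in the 39 others and was left out, so that this group had 4 mice.

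Cyp2c enzymes are cytochromes P450 of the endoplasmic reticulum that take electrons from the reductase encoded by Por. In the liver they oxidise fatty acids such as arachidonic and linoleic acid to epoxides and hydroxy acids, and also act on retinoids, steroids, bile acids and many drugs. Their genes are known for sex-dependent levels in rodent liver, set largely by growth hormone, and for responses to the nuclear receptors CAR and PXR.

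All 10 genes lay in the same stretch of chromosome 19 of GRCm38, from base 39007019 to base 40187333, over 1.18 Mb with 5 of them on each strand and with Cyp2c65, Cyp2c66, Cyp2c67 and Cyp2c68 among them. The copies were close in sequence. The coding sequences of Cyp2c40 and Cyp2c69 were 97.9% identical, those of Cyp2c37 and Cyp2c50 96.1%, those of Cyp2c50 and Cyp2c54 95.2% and those of Cyp2c38 and Cyp2c39 94.2%. Cyp2c70 stood farthest from the rest, with 73.1% identity to its closest relative, Cyp2c66. Probe sequences were not used here, so how well each probe separates these paralogs was not tested, and the values of near-identical pairs are uncertain to that extent.

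Promoters of 5 members are shown because these genes hold the contrasts described further on. Cyp2c29 and Cyp2c70 fell in both sexes, Cyp2c39 was far higher in females and did not pass the test with dose, and Cyp2c40 and Cyp2c69 are the most similar pair, of which only Cyp2c69 passed the test with dose. All 5 were picked on values of these data. With Cyp2c54, Cyp2c29 and Cyp2c70 are the 3 members with the smallest adjusted p in a comparison with control. The last 3 were picked after their values were seen. Each run is the 250 bases before the RefSeq transcription start (GRCm38.p6), 5′ to 3′ on the gene's strand, with capitals marking matches to the motifs named after them. The windows are chr19:39286835-39287084 (plus strand) for Cyp2c29, chr19:40187287-40187536 (minus) for Cyp2c70, chr19:39510572-39510821 (plus) for Cyp2c39, chr19:39812815-39813064 (minus) for Cyp2c40 and chr19:39886770-39887019 (minus) for Cyp2c69.
Cyp2c29: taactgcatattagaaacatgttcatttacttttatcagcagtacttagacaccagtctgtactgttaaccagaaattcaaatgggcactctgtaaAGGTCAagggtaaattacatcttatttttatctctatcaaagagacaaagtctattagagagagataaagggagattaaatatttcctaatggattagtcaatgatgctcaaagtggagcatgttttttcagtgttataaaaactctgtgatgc
Cyp2c70: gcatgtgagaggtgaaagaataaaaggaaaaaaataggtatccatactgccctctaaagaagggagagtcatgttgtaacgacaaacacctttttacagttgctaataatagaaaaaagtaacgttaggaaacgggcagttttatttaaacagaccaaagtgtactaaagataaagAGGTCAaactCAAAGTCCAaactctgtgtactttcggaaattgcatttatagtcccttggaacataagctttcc
Cyp2c39: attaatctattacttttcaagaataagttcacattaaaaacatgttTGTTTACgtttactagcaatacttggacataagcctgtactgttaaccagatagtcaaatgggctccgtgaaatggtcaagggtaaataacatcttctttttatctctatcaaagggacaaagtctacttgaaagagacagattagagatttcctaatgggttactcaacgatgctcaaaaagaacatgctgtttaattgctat
Cyp2c40: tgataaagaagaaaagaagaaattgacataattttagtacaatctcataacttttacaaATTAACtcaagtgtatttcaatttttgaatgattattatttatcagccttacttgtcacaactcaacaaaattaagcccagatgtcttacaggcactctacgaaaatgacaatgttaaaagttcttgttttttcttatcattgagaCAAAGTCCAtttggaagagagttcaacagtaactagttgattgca
Cyp2c69: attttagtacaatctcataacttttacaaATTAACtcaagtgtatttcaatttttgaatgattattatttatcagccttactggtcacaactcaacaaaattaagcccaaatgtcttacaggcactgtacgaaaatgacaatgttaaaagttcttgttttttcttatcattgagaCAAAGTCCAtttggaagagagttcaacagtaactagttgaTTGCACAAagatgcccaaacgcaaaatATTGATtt

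The capitals were found by a letter search on both strands. Cyp2c70 held AGGTCA, a nuclear receptor motif, from base -74 and CAAAGTCCA, an HNF4A-type site, from base -64, and the 2 matches did not overlap. The same CAAAGTCCA stood in Cyp2c40 from base -45 and in Cyp2c69 from base -75, so 3 of the 9 members with a promoter entry held it, against 0.384% of all 32851 promoters. Cyp2c29 held AGGTCA from base -154, a motif found in 14% of all promoters. Cyp2c39 held the forkhead motif TGTTTAC from base -204, as did Cyp2c38 from base -217, against 3.17% of all promoters. Cyp2c40 and Cyp2c69 are close copies, as are Cyp2c38 and Cyp2c39. A match shared within such a pair is therefore not 2 independent matches, and the comparison with all promoters does not allow for this. Cyp2c40 and Cyp2c69 also held the HNF1 motif GTTAAT, and only Cyp2c69 of that pair held the CEBP motif TTGCNNAA and the onecut motif ATCAAT in its window. These motifs stood in 6.43%, 9.56% and 6.72% of all promoters. The windows of Cyp2c40 and Cyp2c69 were 86.8% identical, and differ mostly because their RefSeq starts are set differently. The Cyp2c40 window ended within the stretch that holds the CEBP match in Cyp2c69. Bases past that point were not searched in Cyp2c40, so no contrast between the copies is shown for the CEBP and onecut motifs. No member promoter matched the STAT motif TTCNNNGAA, found in 7.02% of all promoters. The RefSeq start of Cyp2c29 lay 17680 bases from the start of the gene in GENCODE. A match is only a run of letters, and binding was not measured. Cyp2c54 is named only.

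Of the 15 probes, 13 passed the filter on low counts, and 1 further probe each of Cyp2c29 and Cyp2c50 stayed at 0 reads throughout. Levels are given as counts per 1000000 reads (CPM), the reads of a probe relative to its library's total, scaled by the trimmed mean of M values. Probes differ in capture, so a CPM compares mice for the same probe and not genes with each other. Counting in these libraries came in steps of 20.8 to 44.8 reads, so a value under about 10 CPM stands for a few captured molecules. In control livers the most counted probes of Cyp2c29, Cyp2c54 and Cyp2c70 stood at 2225 ± 72.8, 1339 ± 381 and 837 ± 164 CPM in males (SD, n = 5) and at 1133 ± 226, 1571 ± 420 and 1155 ± 285 CPM in females. Cyp2c50, Cyp2c38 and Cyp2c40 were counted at 47.7 CPM or less in the controls of either sex, and Cyp2c37 and Cyp2c55 at 3.49 CPM or less.

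In control livers the sexes differed in part of the family. Between female and male controls, 5 of the 13 probes passed the test (edgeR's quasi-likelihood test, Benjamini-Hochberg adjusted p below 10%), against 3.49% of all 17877 probes tested. Cyp2c39, Cyp2c38 and Cyp2c69 were higher in females, and Cyp2c29 was higher in males by 2 of its 3 probes.

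Cyp2c39 encodes an enzyme known for hydroxylating retinoic acid. The 5 control males had 93.6, 197, 99.0, 81.0 and 51.1 CPM. The 5 control females had 1132, 1396, 1453, 1267 and 1356 CPM. The lowest female was far above the highest male. The log2 difference was 3.66 (SE 0.28), with an adjusted p of 4.51e-14.

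Cyp2c38, the closest copy of Cyp2c39 and an arachidonic acid epoxygenase, showed the same order of the sexes. Control males had 6.53, 9.20, 17.2, 4.76 and 2.44 CPM, and control females had 21.4, 24.2, 52.6, 44.4 and 64.4 CPM. The sexes did not overlap. Its log2 difference was 2.37 (SE 0.45, adjusted p = 0.000545).

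Cyp2c69 was counted only in females among these 39 libraries. It had 0 reads in all 20 males of the 4 dose groups, and 72.9, 80.3, 85.4, 135 and 64.9 CPM in the control females. Against a floor of 3 molecules a library, which was at most 10.4 CPM in males, the female control mean of 87.8 CPM was at least 8.47-fold higher (adjusted p = 5.3e-07). Cyp2c40, its near-identical copy, was counted in both sexes. Its control males had 6.68, 3.32, 4.92, 10.1 and 2.71 CPM and its control females 14.2, 10.3, 22, 14.1 and 28.2 CPM. Every control female was above every control male, by a narrow margin. The log2 difference of 1.68 (SE 0.67) did not pass the test (adjusted p = 0.235), but did by DESeq2 (adjusted p = 0.0997).

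**Figure D1:**
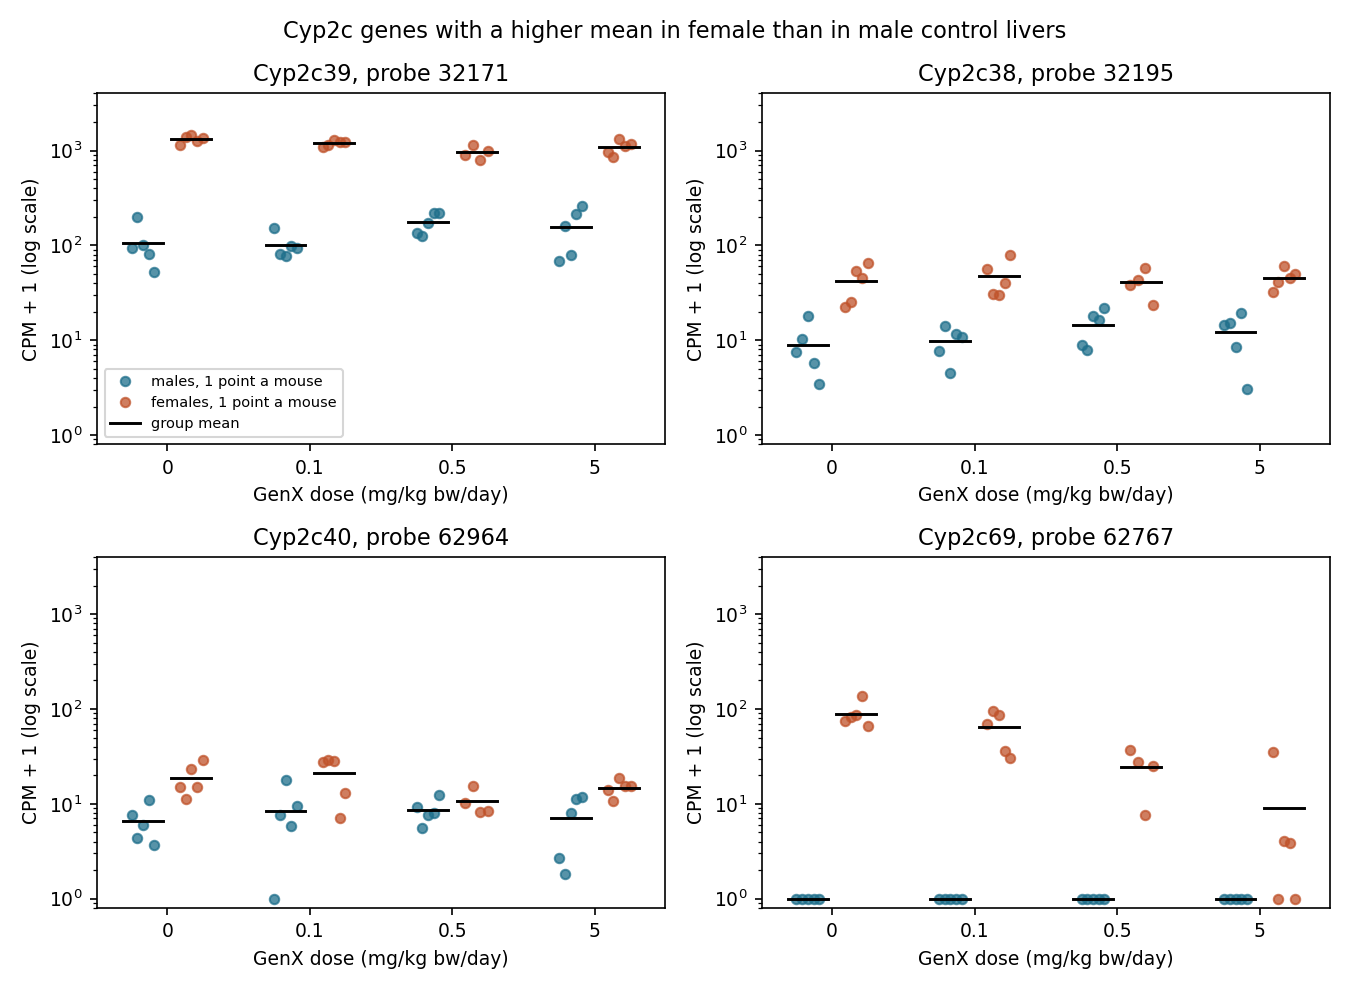
CPM + 1, on a log axis, of Cyp2c39, Cyp2c38, Cyp2c40 and Cyp2c69 by sex and dose in mg/kg bw/day. Points are mice and lines group means, and Cyp2c69 is at 0 in all 20 males, while its females go from 64.9 to 135 CPM in controls to at most 34.2 CPM at 5 mg/kg.

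Cyp2c29, an arachidonic acid epoxygenase and a CAR-responsive gene, went the other way. Its most counted probe was lower in control females by 0.97 on the log2 scale (SE 0.17, adjusted p = 9.65e-05), and its second probe had a log2 difference of -0.66 (adjusted p = 0.0391). The third probe had a log2 difference of 0.19 (adjusted p = 1), so the sex difference depended on the probe. Without control female 152, the second probe no longer passed (adjusted p = 0.147). With library 355 kept in the fit, both Cyp2c29 calls were lost (adjusted p = 0.307 and 0.881). Cyp2c70 had a log2 difference of 0.46 with a 95% interval from 0.01 to 0.92 and did not pass (unadjusted p = 0.0501, adjusted p = 0.265). The intervals use normal limits, which are slightly narrower than the test allows. For Cyp2c54 the 2 probes gave 0.23 and 0.49, and for Cyp2c50 the probe gave 0.79, none past the test.

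At 5 mg/kg, 4 Cyp2c genes were far lower in males. Cyp2c29, Cyp2c50, Cyp2c54 and Cyp2c70 fell by all 7 of their tested probes, and none of the 13 probes rose, while 8.28% of all probes tested were called (863 higher and 617 lower). The median log2 change over the 12 member probes with an estimate was -2.21, against 0.104 over all probes tested. Genes with several probes count more than once in it. By the most counted probe of each of the 10 genes, Cyp2c69 at 0 reads included, the median was -1. By these probes 4 genes passed and 6 did not. In bulk tissue, fewer cells of a type and less RNA per cell cannot be told apart.

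Cyp2c54, an epoxygenase of arachidonic and linoleic acid, had the largest falls by its pair of probes. By the more counted one, control males had 1871, 1581, 1247, 1012 and 987 CPM. Males at 5 mg/kg had 52.6, 18.1, 64.8, 214 and 62.3 CPM. Even the highest treated male, mouse 404, was far below the lowest control. The level was 16.3-fold lower (log2 change -4.02, SE 0.38, adjusted p = 2.68e-11). The other probe gave a 14.4-fold lower level (log2 change -3.85, SE 0.34, adjusted p = 2.73e-12).

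Cyp2c50, another epoxygenase and the closest relative of Cyp2c54, was counted at a much lower CPM. Its control males had 33.1, 28.1, 38.6, 23.6 and 14.8 CPM, and its males at 5 mg/kg had 0, 0, 4.96, 2.77 and 3.45 CPM. The groups were apart, with treated values at a few molecules each. The log2 change was -3.64 (SE 0.61, adjusted p = 1.81e-05).

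Cyp2c29 was measured by 3 probes with reads. The most counted had 2245, 2235, 2188, 2326 and 2129 CPM in control males and 239, 292, 187, 491 and 361 CPM at 5 mg/kg. The control males lay close together and all treated males were well below them. This probe was 7.08-fold lower (log2 change -2.82, SE 0.18, adjusted p = 1.53e-17). The second was 5.34-fold lower (adjusted p = 1.51e-13). The third, with 62.6 ± 12.4 CPM in controls (SD, n = 5), was 3.18-fold lower (adjusted p = 3.06e-05).

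Cyp2c70 encodes the enzyme that makes muricholic acids, the hydrophilic bile acids of mice. Control males had 964, 721, 637, 1031 and 833 CPM, and males at 5 mg/kg had 174, 307, 117, 210 and 233 CPM. No treated male reached the lowest control. The level was 4.02-fold lower (log2 change -2.01, SE 0.24, adjusted p = 1.2e-08).

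**Figure D2:**
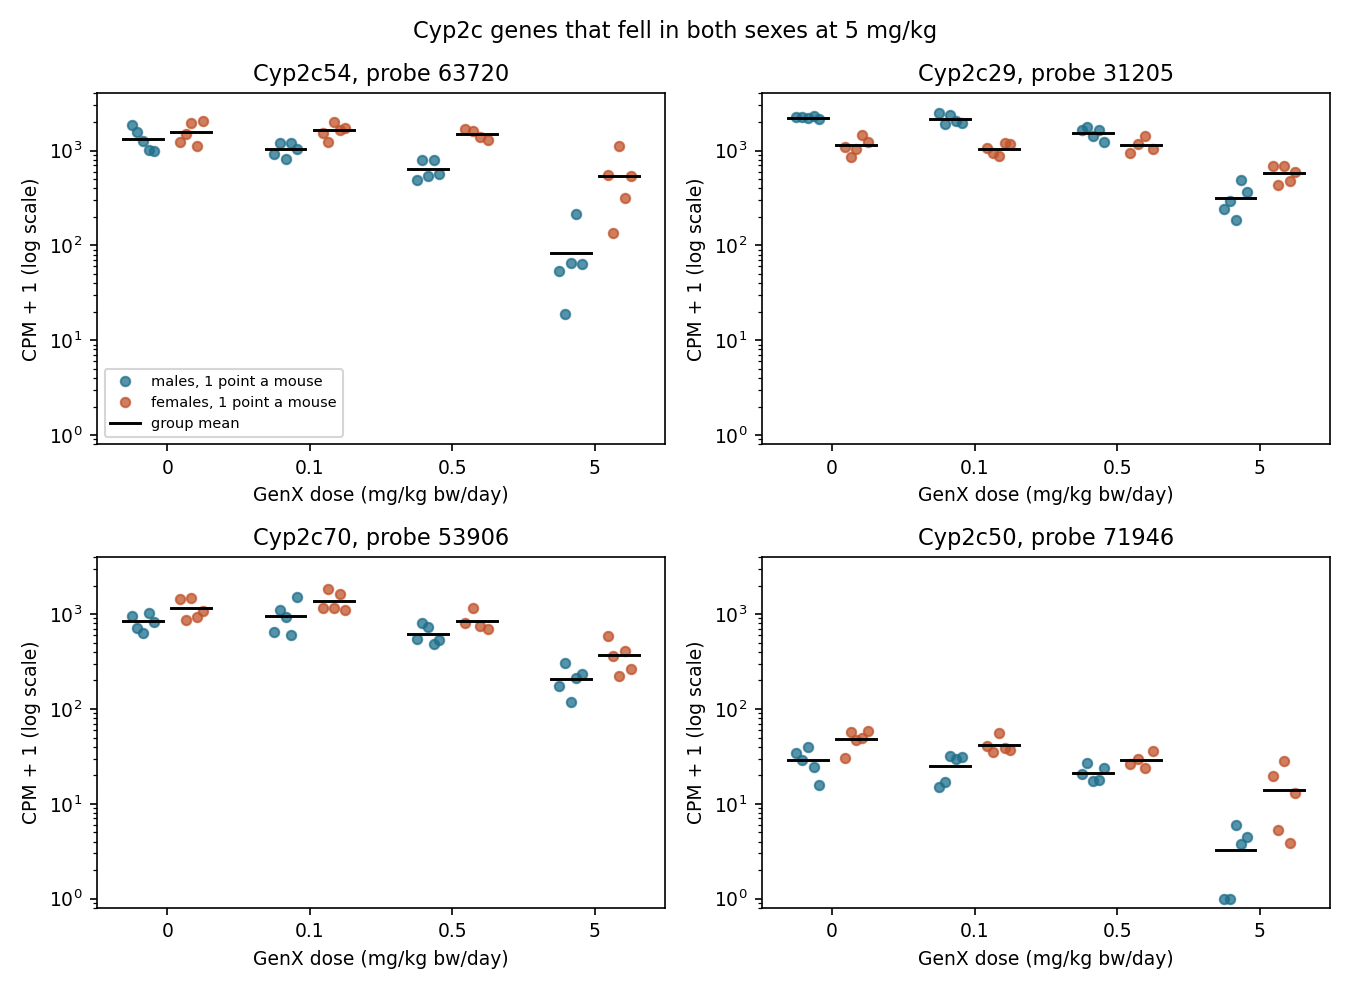
CPM + 1, on a log axis, by sex and dose in mg/kg bw/day for the 4 Cyp2c genes that fell in both sexes at 5 mg/kg. Points are mice and lines group means, and the males at 5 mg/kg lie below every male control, from 117 to 307 CPM for Cyp2c70 and from 187 to 491 CPM for the most counted Cyp2c29 probe.

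The remaining 5 genes with a male estimate did not pass the test at 5 mg/kg in males. Cyp2c39 had 66.8, 160, 78.3, 211 and 260 CPM at this dose. These values overlapped the controls and reached above them. The log2 difference was 0.57 (95% interval 0.08 to 1.07, adjusted p = 0.183), and it passed with no filter on low counts (adjusted p = 0.0263) and when male 102, 401 or 403 was left out, with log2 values of 0.94, 0.77 and 0.74. Cyp2c38 had a log2 difference of 0.48 (95% interval -0.38 to 1.33) and Cyp2c40 one of 0.13 (95% interval -1.16 to 1.41). For Cyp2c55, an enzyme found mostly in the intestine, the log2 difference was 1.12 with an interval from -2.80 to 5.04, at 6.93 ± 5.51 CPM in treated males (SD, n = 5).

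Cyp2c37, known for hydroxylating arachidonic acid, was near the limit of counting. Its control males had 5.12, 3.32, 0, 2.70 and 3.34 CPM, and at 5 mg/kg mouse 403 had 1.91 CPM while the other 4 males had no read. The difference did not pass (adjusted p = 0.434), but did without mouse 403 (adjusted p = 0.0293), as did that between 5 and 0.5 mg/kg (adjusted p = 0.0704), with no read in the treated males that were left. A level this low could not be followed at this depth.

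Females at 5 mg/kg showed lower levels of the same 4 genes and of Cyp2c69. Of the 13 probes, 8 fell and none rose, against 3.66% of all probes tested (327 higher and 328 lower). The median log2 change over the 13 probes was -0.974, against -0.00839 over all probes. By the most counted probe of each of the 10 genes it was -0.788, with 5 genes passing and 5 not. Each sex was compared with its own controls. With the shallow library 355 kept in the fit, 1 of the 8 calls remained, that of Cyp2c70, at nearly the same log2 changes. Library 355 held 109 reads of the most counted Cyp2c29 probe, against 11896 to 17443 in the other females at 0.5 mg/kg. It held 80 reads of the more counted Cyp2c54 probe, 662 of Cyp2c70 and 0 of the second Cyp2c29 probe.

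Cyp2c70 had 1425, 868, 1486, 924 and 1072 CPM in control females and 584, 359, 222, 410 and 263 CPM at 5 mg/kg. The groups did not overlap. The level was 3.14-fold lower (log2 change -1.65, SE 0.24, adjusted p = 1.8e-06).

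Cyp2c29 by its most counted probe had 1085, 863, 1031, 1464 and 1221 CPM in control females and 686, 437, 694, 477 and 590 CPM at 5 mg/kg. All treated females were below all controls, with a gap smaller than in males. It was 1.96-fold lower (log2 change -0.97, SE 0.17, adjusted p = 6.57e-05). The other probes gave log2 changes of -0.97 (adjusted p = 0.000489) and -1.30 (adjusted p = 0.00259).

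Cyp2c54 by its more counted probe had 1236, 1495, 1959, 1115 and 2052 CPM in control females. At 5 mg/kg the females had 553, 135, 1121, 319 and 545 CPM. Mouse 453 lay within the control range, and the other 4 lay below it. The log2 change was -1.55 (SE 0.35, adjusted p = 0.00342), and the other probe gave -1.36 (SE 0.31, adjusted p = 0.00403). Cyp2c50 had 29.5, 56.3, 45.6, 49.0 and 58.0 CPM in controls and 18.7, 4.35, 27.3, 2.85 and 11.9 CPM at 5 mg/kg. These groups came close without overlap. Its log2 change of -1.87 (SE 0.56) passed narrowly (adjusted p = 0.0519), and did not pass without mouse 152, 155, 452, 454 or 455, with adjusted p from 0.109 to 0.17.

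Cyp2c69 fell from the control values given above to 34.2, 0, 3.03, 2.85 and 0 CPM at 5 mg/kg. Mouse 451 stood apart from the other 4, which were at or near 0. The log2 change was -3.45 (SE 0.85, adjusted p = 0.0155), a call that DESeq2 did not give (adjusted p = 0.161). Without mouse 451 the log2 change was -5.88 (adjusted p = 8.18e-06). Cyp2c40 had 12.9, 9.77, 17.6, 14.3 and 14.4 CPM at 5 mg/kg, within the range of its controls apart from the lowest mouse. Its log2 difference was -0.36 (95% interval -1.64 to 0.91). The difference between the 2 copies was not tested.

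Cyp2c39 stayed near its high female level, with 964, 849, 1320, 1126 and 1171 CPM at 5 mg/kg. The log2 difference was -0.28 with a 95% interval from -0.77 to 0.21 (adjusted p = 0.857). Cyp2c38 had 0.12 (95% interval -0.72 to 0.95), Cyp2c37 had -0.60 and Cyp2c55 had 1.04, none past the test.

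**Figure D3:**
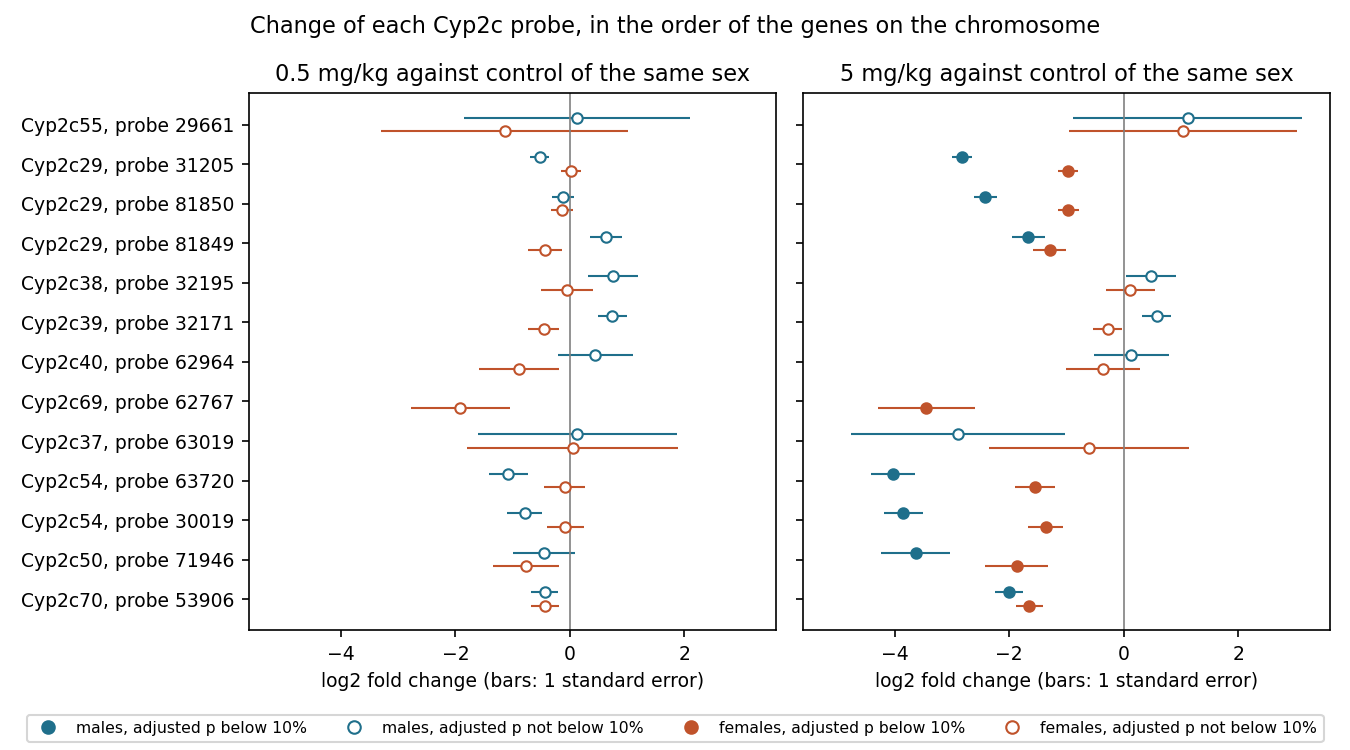
Log2 fold change of each tested Cyp2c probe against controls of the same sex at 0.5 and 5 mg/kg, with bars of 1 standard error and filled points for an adjusted p below 10%. At 0.5 mg/kg no point is filled, and at 5 mg/kg 7 male and 8 female points are filled, all below 0. Cyp2c69 has no male point because it was at 0 in all males.

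Mice at 5 mg/kg differed from each other across genes. Male 404 had the highest CPM of its group in 7 of the 13 tested probes, all 3 of Cyp2c29 and both of Cyp2c54 among them, and was the lowest in none. Female 453 was the highest in 8 of 13 probes, and female 452 was the lowest in 6, with Cyp2c54 and Cyp2c29 in both counts. In Cyp2c70 the order was another one. There female 453 was the lowest of its group, at 222 CPM, and female 451 the highest. Counts like these were also found in other groups. Female 353 at 0.5 mg/kg was the highest in 7 of 13 probes. Male control 105 and female control 152 were each the lowest in 6. Probes of the same gene are counted separately here.

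The sexes differed in the size of the change at 5 mg/kg for 2 genes. The interaction of sex and dose passed for 4 of the 13 probes, against 1.04% of all probes tested. The female minus male difference in log2 change was 2.47 (SE 0.49, adjusted p = 0.00392) and 2.49 (SE 0.44, adjusted p = 0.000816) for the probes of Cyp2c54. It was 1.85 (SE 0.24, adjusted p = 1.58e-06) and 1.45 (SE 0.26, adjusted p = 0.0013) for 2 probes of Cyp2c29. All 4 mean a smaller fall in females, and the median over all probes was -0.162. The third Cyp2c29 probe gave 0.37 (95% interval -0.40 to 1.15). Cyp2c70 gave 0.36 (95% interval -0.28 to 0.99, adjusted p = 0.887) and Cyp2c50 gave 1.76 (95% interval 0.24 to 3.29, adjusted p = 0.333), so a sex difference was not shown for them. With library 355 kept in the fit, none of the 4 passed, with adjusted p from 0.202 to 0.535.

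At the middle dose of 0.5 mg/kg, no member probe passed the test in either sex. In males 0 of 13 passed by edgeR, and 1 was called by DESeq2, against 2.38% of all probes tested by edgeR. An unadjusted p below 0.05 was found for 5 of the 13, against 18.1% of all probes. In females 0 of 13 passed by edgeR, and 0 by DESeq2, against 0.213% of all probes by edgeR, and 1 of the 13 had an unadjusted p below 0.05, against 10.2% of all probes.

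For 4 of the 13 probes, the males at 0.5 mg/kg did not overlap the male controls, against 3.34% of all probes tested. None of the 4 passed the test as set here, but each passed under some other setting. The more counted Cyp2c54 probe had 492, 790, 534, 797 and 564 CPM, all below the lowest control of 987 CPM. Its log2 difference of -1.08 (SE 0.34) had an adjusted p of 0.113. This probe passed with DESeq2 size factors in edgeR (adjusted p = 0.0919) and with no filter on low counts (7.06e-05). It also passed with counts in molecules (0.0231) and only the groups compared (0.00299), but not by DESeq2 (0.123) or with all 40 libraries. The most counted Cyp2c29 probe had 1641, 1783, 1429, 1642 and 1228 CPM, all below the controls, with a log2 difference of -0.53 (SE 0.17, adjusted p = 0.105). It passed by DESeq2 (adjusted p = 0.0195) and in edgeR with DESeq2 size factors (0.0588). It also passed with no filter (0.0102), counts in molecules (0.0169) and only the groups compared (0.00742), but not with all 40 libraries. Neither of these 2 probes passed in a fit that left out 1 mouse.

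The third Cyp2c29 probe went the opposite way. It had 91.9, 105, 105, 90.1 and 94.0 CPM at 0.5 mg/kg, all above the highest male control of 75.3 CPM. The log2 difference was 0.63 (SE 0.28, adjusted p = 0.259), while the second probe gave -0.12. Probes of one gene thus differed in sign at this dose and shared a direction at 5 mg/kg. Cyp2c39 had 134, 126, 173, 219 and 221 CPM in these males, with a log2 difference of 0.74 (SE 0.25, adjusted p = 0.155). Without male control 102, the highest control, it was 1.10 (adjusted p = 0.00852).

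In females at 0.5 mg/kg, Cyp2c69 had 36, 26.5, 6.58 and 24 CPM, all below the lowest control of 64.9 CPM. It was 1 of 13 probes without overlap in this comparison, against 1.7% of all probes. The log2 difference was -1.91 (SE 0.86, adjusted p = 0.485). Cyp2c70 had -0.44 (SE 0.25), and both Cyp2c54 probes had differences of -0.09 and -0.08. The interaction of sex and dose passed for 0 of 13 probes at 0.5 mg/kg by edgeR and for 0 by DESeq2, against 0.274% of all probes by edgeR. An unadjusted p below 0.05 was found for 3 of the 13, against 10.9% of all probes.

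The step from 0.5 to 5 mg/kg was tested directly. In males 7 of 13 probes were lower at 5 than at 0.5 mg/kg, against 2.64% of all probes, with log2 changes of -2.30 for all 3 Cyp2c29 probes, -2.95 and -3.06 for Cyp2c54, -3.19 for Cyp2c50 and -1.57 for Cyp2c70. In females 5 of 13 passed, against 1.23% of all probes. They were 2 probes of Cyp2c29 (-0.99 and -0.83), both of Cyp2c54 (-1.47 and -1.28) and Cyp2c70 (-1.21). Without female 454, 3 of these passed. Cyp2c69 had -1.53 in females (adjusted p = 0.395), and -3.97 (adjusted p = 0.00268) without female 451.

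At 0.1 mg/kg no probe of the family passed in males, in females or in the interaction. The counts were 0 of 13 by edgeR in each, with 0 at an unadjusted p below 0.05 and 0 by DESeq2, against 0.0336% of all probes called by edgeR in males, 0% in females and 0% for the interaction. Over all probes, 13.6%, 10.3% and 8.41% had an unadjusted p below 0.05 in these comparisons. The more counted Cyp2c54 probe stood at 1034 ± 165 CPM in males and 1635 ± 281 CPM in females (SD, n = 5). The log2 difference of the most counted Cyp2c29 probe was -0.04 in males (95% interval -0.37 to 0.28) and -0.11 in females (95% interval -0.43 to 0.22).

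With 1 probe a gene, the most counted, the summed level of the 10 genes was 4553 ± 475 CPM in control males, 4298 ± 256 at 0.1, 3020 ± 362 at 0.5 and 787 ± 287 at 5 mg/kg (SD, n = 5). In females it was 5379 ± 608, 5437 ± 280, 4545 ± 467 (n = 4) and 2650 ± 601 CPM. The male mean was lower at each higher dose, and the female mean was below that of controls at 0.5 and 5 mg/kg. The summed level was not tested. The make-up of the sum shifted with it, as a share rises when other genes in the sum fall. In males, Cyp2c39 made up 2.26 ± 1.10% of the sum in controls and 18.9 ± 5.64% at 5 mg/kg, and Cyp2c54 made up 29.1 ± 5.57% and 10.1 ± 6.22%. In females, Cyp2c39 made up 24.7 ± 2.68% and 41.7 ± 5.81%. Between these groups the mean CPM of Cyp2c39 went from 104 to 155 in males and from 1321 to 1086 in females, neither past the test. A share depends on the capture of each probe, so it orders mice and not genes.

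**Figure D4:**
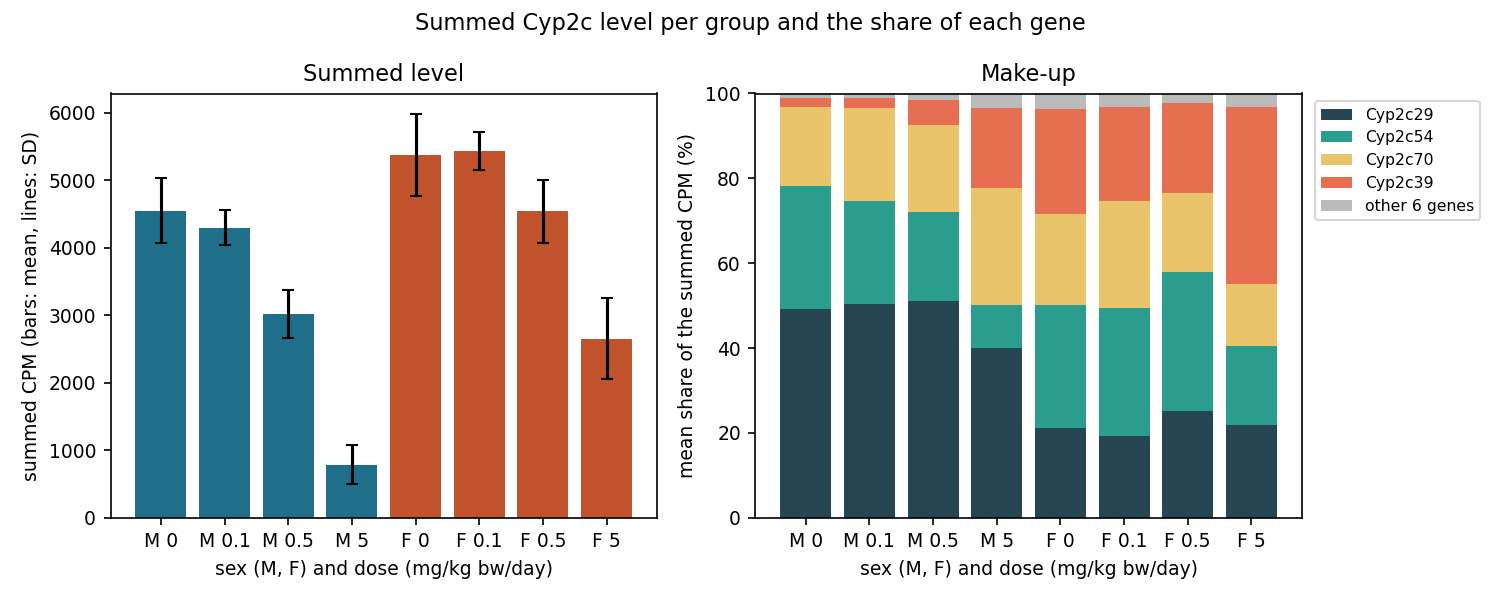
Left, summed CPM of the 10 Cyp2c genes by sex (M, F) and dose in mg/kg bw/day, with the most counted probe of each gene, bars for means and lines for SD. Right, mean percent of that sum for each gene, in which Cyp2c39 goes from 2.26% to 18.9% in males and from 24.7% to 41.7% in females between control and 5 mg/kg.

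The Cyp2c genes outside the 10 were looked at for comparison. Of 7 listed, 5 had a probe and 4 were tested, and Cyp2c67 and Cyp2c68, which lie between Cyp2c39 and Cyp2c40, were higher in control females. Cyp2c67 had a log2 difference of 6.12 between the sexes (adjusted p = 0.000221) and fell in females at 5 mg/kg by 3.18 on the log2 scale (adjusted p = 0.0541). Cyp2c68 had log2 values of 1.25 (adjusted p = 0.0267) and -1.17 (adjusted p = 0.0398) for these comparisons. Like Cyp2c69, Cyp2c67 was highest in female 451 at 5 mg/kg, with 92.8 CPM.

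Genes with the most similar profile over the 39 libraries were found for the 3 most counted members that fell, among 12398 genes. For Cyp2c54 they were Prodh, Slc10a1 and Hsd11b1, with Pearson's r of 0.914, 0.912 and 0.908. For Cyp2c29 they were Ces3b (0.882), Gm10681 (0.869) and Pipox (0.865), and for Cyp2c70 they were Amy1 (0.888), Apof (0.874) and Ces1c (0.86). All these points share the same libraries and dose groups, and the values are a description only.

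Other genes of the pathway were taken from lists that were written with earlier results of these data known. They are given for males and females at 5 mg/kg, where 8.28% and 3.66% of all probes tested were called in either direction. Of 11 tested electron donors and heme enzymes, 1 rose in males, Por (log2 change 1.05), and 1 in females, Cyb5b, a cytochrome b5 (0.52), which is near the background in males. Among 7 tested genes of the epoxide and arachidonic acid pathway, Ephx1 and Ephx2, which hydrolyse the epoxides that Cyp2c enzymes form, rose in males by 1.43 and 0.73 and in females by 1.86 and 1.72 on the log2 scale. Of 18 other Cyp2 genes, 5 rose and 5 fell in males and none passed in females. Cyp2b9 had a log2 change of 4.46 and Cyp2f2 one of -1.05 in males. Of 20 CAR and PXR targets, a list that holds Cyp2c29 itself, 7 rose and 3 fell in males and 3 rose and 1 fell in females.

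Against the same background of 8.28% in males and 3.66% in females, 3 of 15 nuclear receptors and factors known to act on Cyp2c genes fell in males, Hnf4a (-0.80), Cebpa (-0.81) and Rxra (-0.35), each by both of its probes. These counts use the most counted probe of each gene. A less counted probe of Nr1i3, the gene of CAR, fell in males by 1.59 on the log2 scale (adjusted p = 0.00202). Its other probes, at 0.11, -0.14 and -0.53, did not pass. Hnf4a alone fell in females (-0.56), by 1 of its 2 probes. Of 15 growth hormone and sex-bias regulators, Igf1 alone fell in males (-1.34), near the background, and Ghr (-0.89) and Prlr (-0.87) fell in females. Of 18 genes of bile acid synthesis and transport, 9 fell in males and 4 in females, with Slc10a1, the bile acid importer, at -2.17 and -0.82. Of 25 PPARA targets, 22 rose in males and 20 in females, with Ehhadh at 5.69 and 4.96.

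Hepatocyte markers moved with the family, and the counts of markers below stand beside 8.28% of all probes called in males and 3.66% in females. Of 9 tested hepatocyte markers, 7 fell in males and 6 in females, and their summed level went from 16476 to 20862 CPM in control males to 10748 to 12172 CPM at 5 mg/kg, and from 18775 to 21012 CPM to 12965 to 14648 CPM in females. None of the 9 was at 0. Of 14 periportal markers, 10 fell and 1 rose in males and 7 fell in females, and of 15 pericentral markers 5 and 4 fell. Of 10 stellate cell markers 2 rose in males, with a summed level of 93.1 to 158 CPM in controls and 215 to 271 CPM at 5 mg/kg, and none passed in females. Of 11 Kupffer cell markers 1 rose and of 10 endothelial markers 1 fell in males, shares near that background, with none in females, and none of 4 cholangiocyte or 7 lymphocyte and neutrophil markers tested passed in either sex. Cholangiocyte markers summed to 31.9 to 63.3 CPM in control males and 40.05 to 95.2 CPM at 5 mg/kg, with Sctr at 0 in all 39 libraries. Kupffer cell markers summed to 163 to 287 and 192 to 332 CPM, with Timd4 at 0 in all 39. Their part in the Cyp2c results was not tested. The estimated number of captured molecules was 287241 to 369995 a library in control males and 483009 to 656745 at 5 mg/kg, against 333648 to 521441 and 306231 to 339820 in females, and its part was not tested either.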

How the data were processed

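Livers of 40 mice were assayed by TempO-Seq. The authors deposited raw counts, 1 whole number per probe and mouse, made, as the submitters' processing notes and methods have it, by demultiplexing with bcl2fastq 2.17.1.14 and aligning reads to the probe set with Bowtie; mm10 is the build named. Reads carry no molecular identifiers, so intervals cover counting error and mouse spread only. Library 355, more than 2 SD below the mean depth, was left out. Counts were scaled by TMM, filtered with filterByExpr and tested per probe with edgeR 4.0.16 (R 4.3.3, quasi-likelihood, all 8 groups in 1 fit). P-values were adjusted by Benjamini and Hochberg over all 17877 probes and called below 10%. CPM have no prior count, apart from log2 CPM with a prior of 2 for profile likeness. Intervals are 95%. The method was tested on simulated counts. Labels give separate mice with no shared replicate numbers. Alternatives were DESeq2 1.42.0, its size factors, no filter, all 40 libraries, groups fitted alone, probes summed, counts in molecules, and each mouse left out. Molecules are reads over the first peak of a library's count distribution. Coding sequences were the longest reading frames of GENCODE transcripts. The members and lists were chosen with earlier results of these data known. Named genes were all tested members, up to 4 genes called from each other list, and the 3 most similar profiles for the 3 most counted members that fell. Cholangiocyte and Kupffer markers at 0 in all libraries were named after their values were seen.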

Additional observations from a re-analysis of the deposited data

Results flagged for a closer look

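Within groups, 7 of 100 sets of values for a probe and group held a mouse far from the others, and chance gives about 1 in 20. That rate does not hold for probes at a few molecules. There a group with reads in 1 mouse only is always flagged, as for Cyp2c37 and Cyp2c55 below. Male control 103 had 1056 CPM of the second Cyp2c29 probe, below the other 4. At 5 mg/kg, male 403 had 1.91 CPM of Cyp2c37 while the others had 0, and male 404 had 214 CPM of the more counted Cyp2c54 probe, above the others. Male 201 had 153 CPM of Cyp2c39 at 0.1 mg/kg, the highest of its group. Female 253 had 54.1 CPM of Cyp2c50 at 0.1 mg/kg, above its group. Female 353 had 2.96 CPM of Cyp2c55 at 0.5 mg/kg while the other 3 had 0. Female 451 had 34.2 CPM of Cyp2c69 at 5 mg/kg, against 3.03 CPM in the next mouse. The calls of the 5 mg/kg comparisons for Cyp2c54 and Cyp2c69 held without the mice that stood apart. Without male 403, whose group then had no read, Cyp2c37 passed in males at 5 mg/kg (adjusted p = 0.0293) and at 5 against 0.5 mg/kg (adjusted p = 0.0704), which it did not with this mouse.

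The change at 5 mg/kg differed between the sexes by the test of the interaction for 4 probes. The female minus male difference in log2 change was 1.85 and 1.45 for 2 probes of Cyp2c29 and 2.47 and 2.49 for the probes of Cyp2c54. These 4 differences passed in each of the 20 fits that left out 1 mouse of the groups compared, and were lost with library 355 included.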

How the results depend on the processing

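Over the 12 comparisons, 36 member probes were called. DESeq2 kept 35 of them, its size factors, no filter on low counts and counts in molecules each kept 36, fits of only the groups compared kept 34, and all 40 libraries kept 18. No called value changed sign under these alternatives or without any 1 mouse. In males at 0.5 mg/kg the count of 0 became 1 by DESeq2, 2 with its size factors, 4 with no filter, 3 in molecules and 4 with only the groups compared, and ranged from 0 to 1 without single mice. In females at 0.5 mg/kg it became 1 in molecules and 1 with only the groups compared. With all 40 libraries the count was 1 in place of 8 for females at 5 mg/kg, 3 in place of 5 for the control sexes, 0 in place of 4 for the interaction at 5 mg/kg and 0 in place of 5 for the female step from 0.5 to 5 mg/kg. That step gave 3 with only the groups compared and 3 to 6 without single mice. The interaction at 0.5 mg/kg gave 1 with no filter and 0 to 1 without single mice. Summing the probes of Cyp2c29 gave log2 values of -0.34 for males at 0.5 mg/kg and -0.82 for female against male controls, opposite in sign to its least counted probe with reads. With all probes summed, Cyp2c29 made up 57.7% of the male control sum in place of 49.2%. The causes were not tested. No paired analysis was possible because the groups share no replicate numbers. Depth limits Cyp2c37 and Cyp2c55, which were at 0 in 11 and 17 of 39 libraries.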
